A study of Homo sapiens with 8 samples.

Results

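The genes described here encode the nuclear subunits of oxidative phosphorylation, the mitochondrial machinery that passes electrons from nutrients to oxygen and makes ATP. They were chosen by their current gene symbols, which begin with NDUFA, NDUFB, NDUFC, NDUFS or NDUFV (complex I), are SDHA to SDHD (complex II), or begin with UQCR (complex III), COX4 to COX8 (complex IV) or ATP5 (complex V). The array carried 104 probes for 83 such genes among 16922 named genes. A gene was tested where at least 1 probe was detected, meaning a detection p under 0.01 against the negative control beads on both arrays of at least 1 condition, which left 71 of these genes among 9269 tested. The symbol rule also takes in 7 NDUFAF genes, which encode complex I assembly factors and not subunits, as well as ATP5IF1, an inhibitor of the ATP synthase, and ATP5F1EP2, a pseudogene whose probe may also read its parent gene. The assembly factors are given apart.

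Complexes I and II feed electrons into the ubiquinone pool, complex III hands them to cytochrome c and complex IV to oxygen. Complexes I, III and IV pump protons across the inner membrane, and complex V, the ATP synthase, lets them return while it makes ATP. Undifferentiated human embryonic stem cells (hESCs) are known for relying much on glycolysis, and the use of respiration is known to shift when they leave the pluripotent state.

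The series holds 8 Illumina human BeadChip arrays of hESCs kept on matrigel, a basement membrane extract, in serum-free N2B27 medium for 5 days, with 2 arrays per condition. The conditions were +IL-11+bFGF, +bFGF, +IL-11 and −bFGF. Where a cytokine was given, its dose was 24 ng/ml for bFGF and 10 ng/ml for IL-11, and −bFGF cultures had neither. The basic fibroblast growth factor bFGF is the usual supplement that maintains hESCs, and the study asked whether interleukin 11 (IL-11) can take its place. The sample labels name the line H1, whereas the text of the study names H9. The sources do not state that replicate arrays stem from different cultures, so a p-value here sets differences against array-to-array spread that could be technical.

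Between 10983 and 11761 of 24526 probes were detected per array. The highest raw intensity of an oxidative phosphorylation probe was 33718 on a scale that reached 53280. After normalization the median log2 signal of the 71 genes lay between 12.02 and 12.21 on the 8 arrays, and that of all genes between 8.94 and 8.97. By the test of the average bFGF effect described below, 6 of 11 hESC markers were higher with bFGF and 3 lower. All 6 neural crest markers and 5 of 6 neuroectoderm markers were lower, and of 9 fibroblast markers 5 were lower and 2 higher. Of all genes tested 13.4% were higher and 14.5% lower.

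The promoters of 70 of the 83 genes were found in RefSeq (build GRCh38.p14, 250 bases before to 50 after the gene start). The binding letters of nuclear respiratory factor 1 (NRF1), a transcription factor known for its sites in promoters of respiratory chain genes, were searched on both strands as GCATGCGC or GCCTGCGC. They stood in 22 of these 70 promoters (31.4%) and in 8.97% of all 27305 promoters. Of the 7702 promoters found for all genes tested, 1234 (16.02%) held them. The promoters of SDHA, the complex II subunit that oxidizes succinate, and of SDHD, one of its membrane anchors, are shown because complex II was the complex in which every tested subunit passed the test described below. The promoter of SDHC, the third complex II gene that passed, was not analysed here, so both sequences are shown without a choice by their letters. Capitals mark the NRF1 letters, read here on the plus strand, the strand of both genes.
SDHA, chr5:218070-218369, plus strand: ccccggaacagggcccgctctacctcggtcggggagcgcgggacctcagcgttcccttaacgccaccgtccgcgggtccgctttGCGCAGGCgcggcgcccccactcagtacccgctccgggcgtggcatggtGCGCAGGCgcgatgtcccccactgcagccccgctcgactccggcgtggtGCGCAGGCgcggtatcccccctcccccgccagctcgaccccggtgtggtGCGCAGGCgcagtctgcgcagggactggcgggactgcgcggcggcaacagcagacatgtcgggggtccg
SDHD, chr11:112086623-112086922, plus strand: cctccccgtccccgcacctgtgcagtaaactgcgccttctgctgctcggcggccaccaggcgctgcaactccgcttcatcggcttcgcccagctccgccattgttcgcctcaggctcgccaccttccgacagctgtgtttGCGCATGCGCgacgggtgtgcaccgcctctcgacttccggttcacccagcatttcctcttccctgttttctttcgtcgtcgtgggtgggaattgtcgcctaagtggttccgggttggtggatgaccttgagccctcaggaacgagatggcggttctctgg
The SDHA promoter held 4 copies of the letters GCGCAGGC, the reverse complement of GCCTGCGC. The SDHD promoter held 2 overlapping matches.

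The first comparison asked what bFGF did on average, setting the 4 arrays with bFGF against the 4 without. Of the 71 genes, 20 were higher with bFGF (limma, Benjamini-Hochberg adjusted p under 0.05 over all 9269 genes) and 1, NDUFB11, was lower. Of all genes 13.4% were higher and 14.5% lower, so 28.2% of the oxidative phosphorylation genes stood against 13.4%. This excess was smaller in a fit without a variance trend over intensity, with 11 of 71 higher against 1127 of all 9269 genes. The changes were small. The 20 genes rose 1.11-fold to 1.97-fold, with a median of 1.23-fold, and 1 of them rose more than 1.5-fold. The median log2 fold change over the 71 genes was 0.14, against -0.01 over all genes, and 60 of 71 values (84.5%) were positive, against 48.0% of all genes. On single arrays, 20 genes had all 4 values with bFGF above all 4 without, as did 14.7% of all genes, and 0 had all 4 below, as did 16.1% of all genes. Of those 20 genes, 13 had also passed the test. The counts by complex below stand against the same 13.4% higher and 14.5% lower of all genes.

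**Figure D1:**
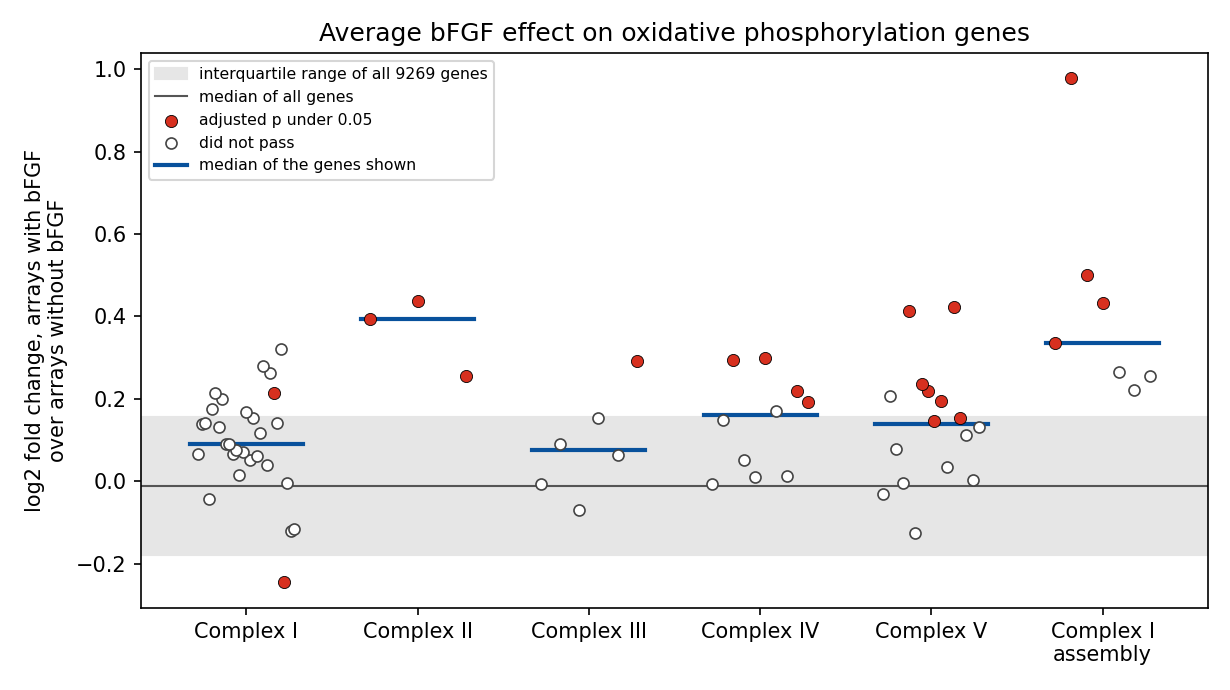
Average log2 fold change of each of the 71 genes, arrays with bFGF over arrays without bFGF, by complex; filled points had an adjusted p under 0.05, blue lines are medians, and the grey band spans the interquartile range of all 9269 genes. Complex II and the assembly factors lie above the band, while complex I lies mostly within it, with a median of 0.09.

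Among the complex I assembly factors, 4 of 7 were higher with bFGF, and their median log2 fold change was 0.34. NDUFAF7, a methyltransferase that acts on a core subunit of complex I during assembly, read 8.79 and 8.76 (log2 signal) in +IL-11+bFGF, 8.83 and 8.62 in +bFGF, 7.92 and 8.05 in +IL-11, and 7.71 and 7.42 in −bFGF. All arrays with bFGF lay above all without, the −bFGF arrays being lowest. NDUFAF7 averaged 8.75 ± 0.09 with bFGF and 7.77 ± 0.28 without (SD, n = 4 arrays each, 2 from each of 2 conditions). These SDs thus include differences between conditions. The log2 fold change of NDUFAF7 was 0.98 ± 0.10 (SE), or 1.97-fold (limma adjusted p = 0.00014). NDUFAF3, which works together with NDUFAF4 early in assembly, read 12.46 and 12.32 in +IL-11+bFGF, 12.36 and 12.46 in +bFGF, 11.87 and 11.96 in +IL-11, and 12.04 and 11.999 in −bFGF. Its groups did not overlap, and it was 1.35-fold higher with bFGF (log2 fold change 0.43 ± 0.06, limma adjusted p = 0.00071). NDUFAF4 itself was 1.41-fold higher (limma adjusted p = 0.022), but its second +bFGF array read 7.09 and its first only 6.64, below the first +IL-11 array at 6.81. NDUFAF2, a late-acting chaperone of complex I assembly, was 1.26-fold higher (limma adjusted p = 0.015). The other 3, NDUFAF1, NDUFAF5 and NDUFAF6, had log2 fold changes of 0.22 to 0.27 and did not pass.

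Complex II was the complex with the highest median, 0.39 on the log2 scale, over its 3 genes on the array. SDHB, the iron-sulfur subunit, was not analysed here. SDHA read 10.28 and 10.33 in +IL-11+bFGF, 10.35 and 10.25 in +bFGF, 9.79 and 9.74 in +IL-11, and 9.86 and 10.08 in −bFGF. It was 1.35-fold higher with bFGF (log2 fold change 0.44 ± 0.07, limma adjusted p = 0.0021). SDHD read 10.20 and 10.04 in +IL-11+bFGF, 9.93 and 9.89 in +bFGF, 9.52 and 9.78 in +IL-11, and 9.67 and 9.50 in −bFGF, which made it 1.31-fold higher with bFGF (0.39 ± 0.09, limma adjusted p = 0.0078). SDHC, the other membrane anchor, read 10.42 and 10.49 in +IL-11+bFGF, 10.43 and 10.36 in +bFGF, 10.20 and 10.14 in +IL-11, and 10.14 and 10.20 in −bFGF, and was 1.19-fold higher (0.25 ± 0.06, limma adjusted p = 0.016). For each of the 3 genes all arrays with bFGF lay above all without.

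Complex I, the largest complex, had few calls. Of 29 tested genes 1 was higher and 1 lower, although 24 of 29 log2 fold changes were positive. NDUFA9, an accessory subunit of the part that reaches towards the membrane, was 1.16-fold higher with bFGF (log2 fold change 0.21 ± 0.07, limma adjusted p = 0.037), and its groups did not overlap. NDUFB11, an accessory subunit of the membrane arm, read 12.15 and 12.14 in +IL-11+bFGF, 12.19 and 12.29 in +bFGF, 12.58 and 12.26 in +IL-11, and 12.55 and 12.37 in −bFGF. The second +bFGF array lay just above the second +IL-11 array, so that the groups overlapped, and NDUFB11 was 1.19-fold lower with bFGF (-0.25 ± 0.08, limma adjusted p = 0.043). NDUFV3, an accessory flavoprotein subunit, had the highest value of the complex, 0.32 ± 0.13, and did not pass (limma adjusted p = 0.10). The 6 core subunits tested, NDUFS1, NDUFS3, NDUFS7, NDUFS8, NDUFV1 and NDUFV2, had log2 fold changes of 0.06 (NDUFS8) to 0.28 (NDUFS1), and none passed.

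**Figure D2:**
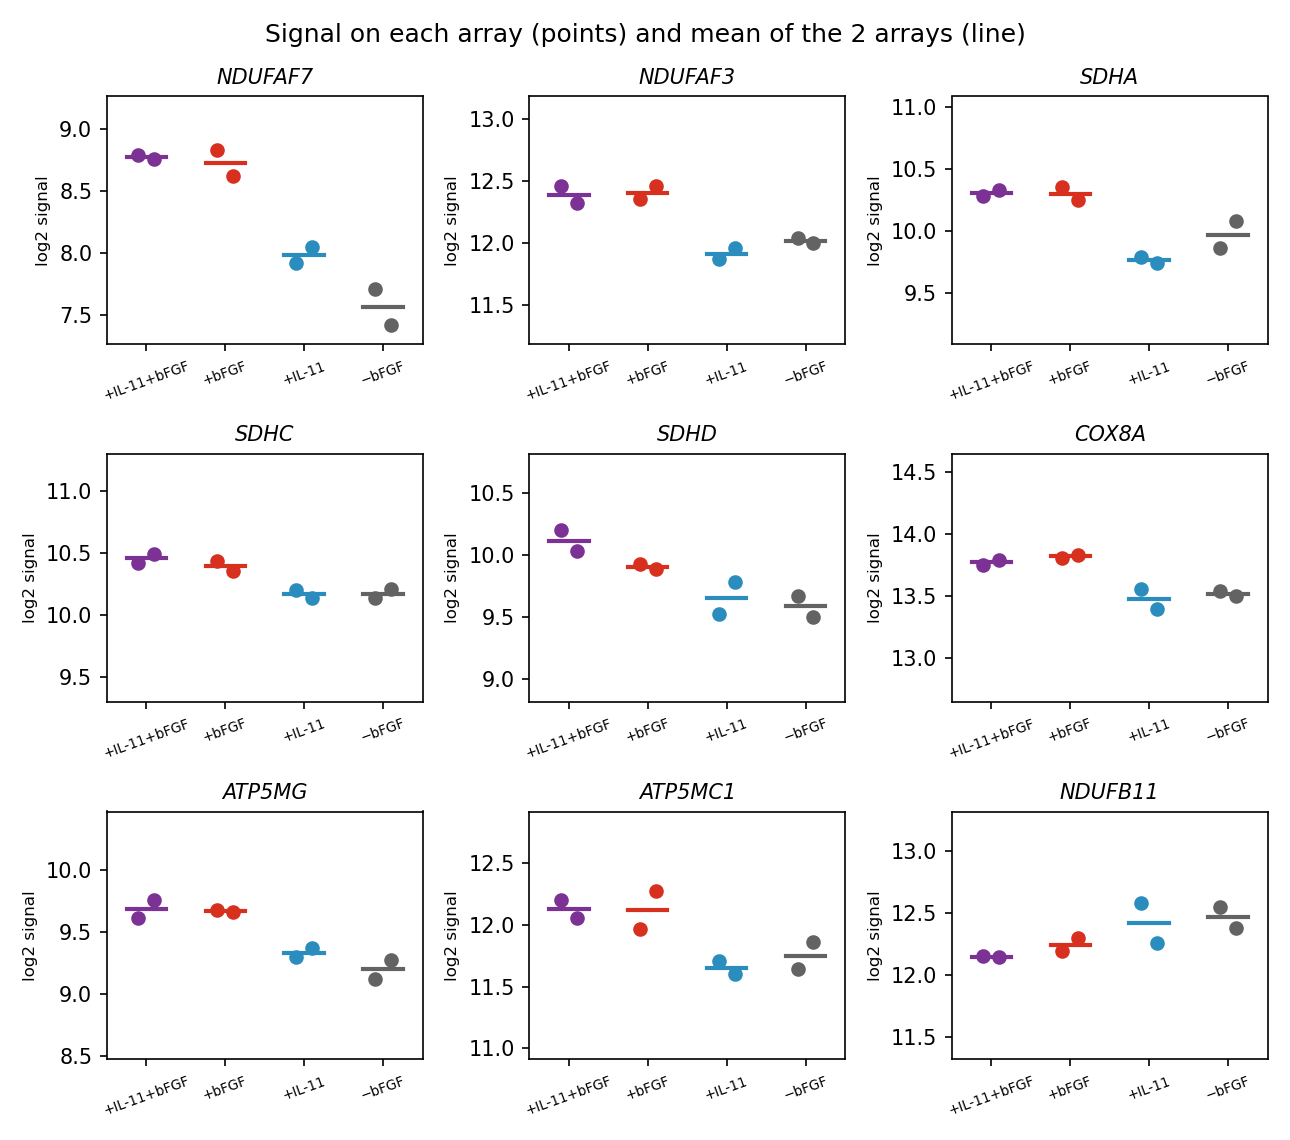
Log2 signal of 9 genes on each array (points) and the mean of the 2 arrays (line), with +IL-11+bFGF, +bFGF, +IL-11 and −bFGF from left to right; every panel spans the same log2 range. In the first 8 panels all 4 arrays with bFGF lie above all 4 without, and NDUFB11 runs the other way with an overlap.

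In complex III, 1 of 6 genes was higher, a share near the 13.4% of all genes. UQCRC2, a core protein of the matrix side, read 10.13 and 10.13 in +IL-11+bFGF, 9.70 and 9.94 in +bFGF, 9.71 and 9.78 in +IL-11, and 9.69 and 9.57 in −bFGF, a 1.22-fold rise with bFGF (limma adjusted p = 0.021) carried mostly by the +IL-11+bFGF arrays. Its partner UQCRC1 had a log2 fold change of 0.09 ± 0.07 and did not pass. The lowest value was that of UQCR10, -0.07 ± 0.08.

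In complex IV, 4 of 10 genes were higher. COX8A, a small membrane subunit, read 13.75 and 13.79 in +IL-11+bFGF, 13.81 and 13.83 in +bFGF, 13.56 and 13.40 in +IL-11, and 13.54 and 13.50 in −bFGF. The groups were far apart compared with the spread within them, and COX8A was 1.23-fold higher (0.30 ± 0.05, limma adjusted p = 0.0029). The others were COX7B (1.23-fold), COX5A (1.16-fold) and COX7C (1.14-fold), with limma adjusted p between 0.024 and 0.043. COX4I1, the subunit through which ATP is known to inhibit the enzyme, had the lowest value, -0.01 ± 0.05. The tissue-specific isoforms COX4I2, COX6A2, COX6B2, COX7A1, COX7B2 and COX8C were detected on 0 of 8 arrays, while the widely expressed forms COX4I1, COX6A1, COX6B1, COX7A2, COX7B and COX8A were tested. Of the other 6 genes that were not tested, NDUFA5, NDUFB4 and NDUFS6 were detected on 0 arrays, UQCRB on 1, ATP5MK on 2 and NDUFC2 on 3. A probe that is not well above background gives no measure of its gene.

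In complex V, 7 of 16 genes were higher. ATP5MC1, 1 of the genes for the c subunit that forms the rotating membrane ring, read 12.20 and 12.06 in +IL-11+bFGF, 11.96 and 12.27 in +bFGF, 11.71 and 11.60 in +IL-11, and 11.64 and 11.86 in −bFGF. It was 1.34-fold higher with bFGF (0.42 ± 0.08, limma adjusted p = 0.0053). ATP5MC2, another gene for the same protein, had a value of -0.03 ± 0.07 and did not pass. ATP5MG, subunit g of the membrane part, read 9.61 and 9.76 in +IL-11+bFGF, 9.67 and 9.66 in +bFGF, 9.30 and 9.37 in +IL-11, and 9.12 and 9.27 in −bFGF, and was 1.33-fold higher (0.41 ± 0.08, limma adjusted p = 0.0034). The catalytic subunit gene ATP5F1B and ATP5F1A, which encodes the alpha subunit beside it, were both 1.11-fold higher, with no overlap between arrays with and without bFGF. ATP5PD of the peripheral stalk, ATP5F1D of the central stalk and the inhibitor gene ATP5IF1 were 1.15-fold to 1.18-fold higher. ATP5F1EP2 had the lowest value, -0.13 ± 0.07, and did not pass.

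Of 14 genes with several detected probes, 3 had probes of opposite sign. For ATP5IF1 the brighter probe gave a log2 fold change of 0.20 (limma adjusted p = 0.049 over probes) and the dimmer -0.50 (limma adjusted p = 0.029), so the array gives no single direction for this gene. The ATP5F1D probes gave 0.24 and -0.02, and neither passed over all probes. ATP5MC2 was the third. For NDUFAF7 the brighter probe gave 0.98 and the dimmer 0.21 (limma adjusted p = 0.34), while both ATP5MC1 probes were higher, at 0.42 and 0.88. For ATP5ME the brighter probe, at 0.13, did not pass, but the dimmer gave 0.44 (limma adjusted p = 0.00099). A dimmer ATP5PF probe passed at 0.31 (limma adjusted p = 0.018), though the brightest did not. ATP5F1A went the other way, with the brighter probe passing at 0.15 and the dimmer, at 0.07, not. Of the 88 detected probes of these genes 23 were higher and 2 lower. The share called among all 11668 kept probes was not counted, so these counts have no background here.

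**Figure D3:**
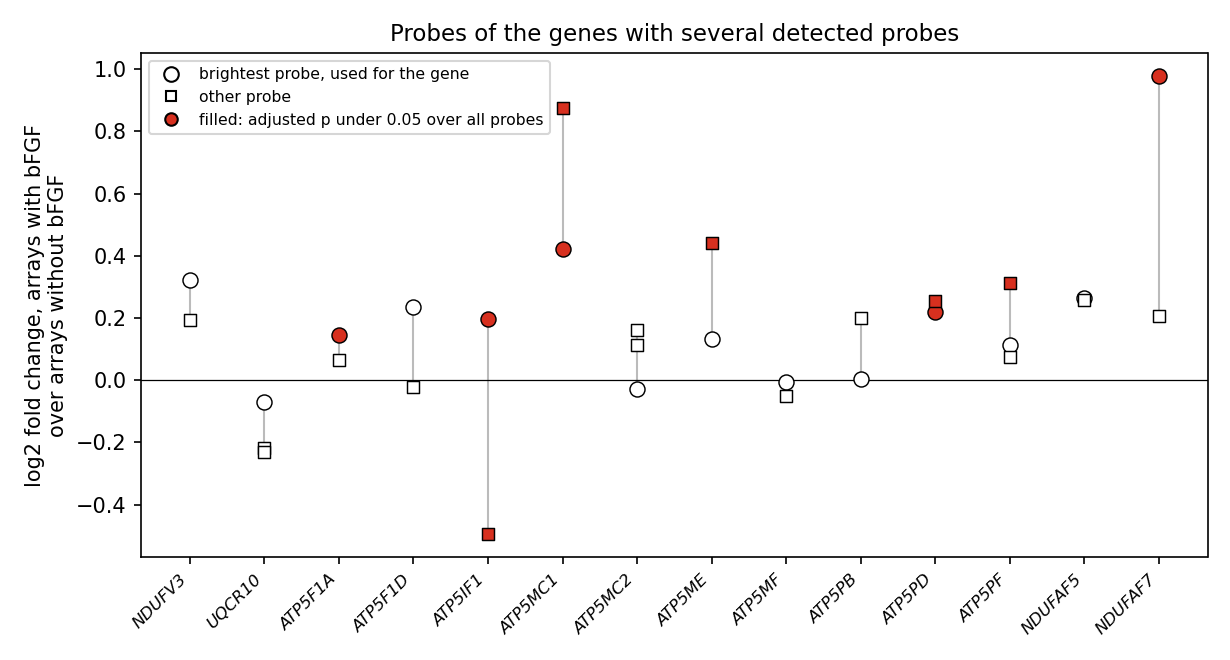
Log2 fold change, arrays with bFGF over arrays without, of every detected probe of the 14 genes with several; circles are the brightest probe, used for the gene, squares the others, and filled symbols had an adjusted p under 0.05 over all probes. The ATP5IF1 probes lie at 0.20 and -0.50.

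The calls depended on single arrays, and fewer of the 71 genes and of all genes passed whenever 1 array was left out. Without the second +bFGF array the share of the 71 that was higher lay near that of all genes. The median log2 fold change of the 71 genes was lowest without the second +IL-11 array, at 0.11, and highest without the first, at 0.17. Over all genes the median was -0.016 and -0.008 in those fits. The genes ATP5MC1, ATP5MG, COX8A, NDUFAF3, NDUFAF7, SDHA and SDHD passed under each of the 17 alternatives run, these included.

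As given above, 6 of 11 hESC markers were higher with bFGF and 3 lower, and of 9 fibroblast markers 5 were lower and 2 higher. The summed linear signal of marker lists, which mostly reflects their brightest genes, differed between arrays with and without bFGF. For 6 neural crest markers it was 2385 to 2966 in +IL-11+bFGF, 2133 to 2509 in +bFGF, 6785 to 7698 in +IL-11 and 6541 to 7954 in −bFGF, with PAX3, NGFR and NEUROG1 not detected. For 6 neuroectoderm markers it was 3626 to 4117, 3711 to 3923, 7573 to 8294 and 7758 to 8368 in the same order of conditions, with SOX1 and ZIC1 not detected. For 11 hESC markers it was 58267 to 63235, 61919 to 62276, 48671 to 48894 and 46753 to 51009. For 9 fibroblast markers it was 29150 to 34722, 28245 to 36348, 41250 to 54893 and 40273 to 41156, with LUM, POSTN and FBN1 not detected. The part of these markers in the oxidative phosphorylation values was not tested, and in bulk RNA fewer cells of a type and less RNA per cell cannot be told apart.

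The bFGF effect was then taken apart by IL-11. Without IL-11 (+bFGF against −bFGF), 4 of 71 genes were higher, ATP5MG, COX8A, NDUFAF3 and NDUFAF7, and 0 were lower, while 7.33% of all genes were higher. Fewer passed when either +bFGF array was left out, and fewest without the second. The median log2 fold change of the 71 genes was 0.15 without the first +bFGF array and 0.11 without the second. With IL-11 in both conditions (+IL-11+bFGF against +IL-11), 7 were higher, ATP5MC1, COX5A, COX8A, NDUFAF3, NDUFAF7, SDHA and SDHD, against 5.63% of all genes. These 7 calls depended on single arrays. Fewer passed whenever 1 array of these conditions was left out, and fewest without the first +IL-11+bFGF array. The median log2 fold change of the 71 genes then ran from 0.09 (without the second +IL-11 array) to 0.17 (without the first). The methods' t-test called 0 of the 71 in both comparisons after adjustment. With 2 arrays against 2 it called only 2 and 0 of all 9269 genes, so this 0 is no result about the 71. At an unadjusted p under 0.05 it gave 9 and 14 of the 71, against 1620 and 1520 of all genes. By limma, COX8A, NDUFAF3 and NDUFAF7 passed in both comparisons.

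These comparisons share no array, though they share the normalization and the estimate of the spread. In both, 54 of 71 genes (76.1%) had a positive value, against 36.7% of all genes. Across the 71 genes, which are not independent replicates, the log2 fold changes correlated with r = 0.76, against 0.87 across all genes. NDUFAF7 had a log2 fold change of 0.79 with IL-11 and 1.17 without it, and SDHA 0.54 with IL-11 and 0.33 without it. The difference itself was tested as the interaction of bFGF and IL-11. It passed for 0 of the 71 genes and for 0.0% of all genes (limma). At an unadjusted p under 0.05 limma gave 0 of the 71 and 176 of all 9269 genes. For NDUFAF7 the difference was -0.37 ± 0.20 and for SDHA 0.22 ± 0.15 on the log2 scale (SE), so a difference of this size could not be told from 0 with 2 arrays per condition.

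**Figure D4:**
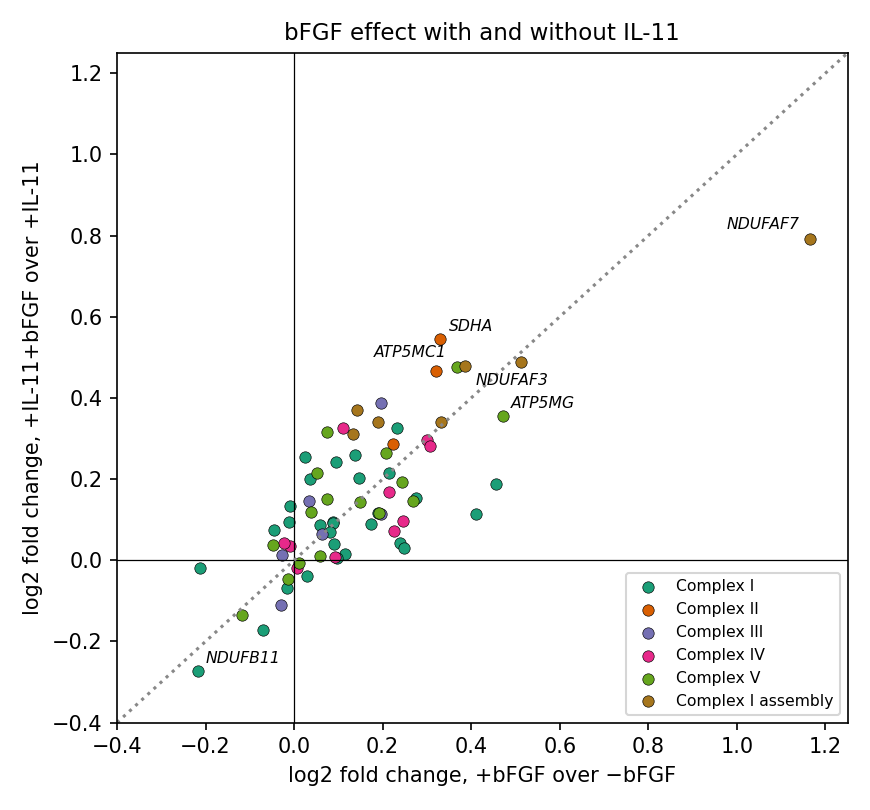
Log2 fold change of the 71 genes for bFGF without IL-11 (horizontal) and with IL-11 (vertical), coloured by complex; the dotted line marks equal values. Most points, 54 of 71, are above 0 on both axes, and NDUFAF7 lies farthest out.

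Whether IL-11 moved these genes was asked in 3 ways. Against −bFGF, +IL-11 changed 0 of 71 genes and 0.0% of all genes (limma). At an unadjusted p under 0.05 limma gave 6 of the 71 and 492 of all 9269 genes. The methods' t-test gave 3 of the 71 and 377 of all genes, and called 0 of either after adjustment. The 6 genes ran both ways, with NDUFAF7 and NDUFA1 at 0.42 and 0.20 and NDUFC1, COX5A, NDUFA13 and ATP5IF1 between -0.24 and -0.21 on the log2 scale. When added to bFGF (+IL-11+bFGF against +bFGF), IL-11 changed 0 of 71 genes and 0.0% of all genes (limma). At an unadjusted p under 0.05 limma gave 1 of the 71, UQCRC2 at 0.31, and 161 of all 9269 genes. The methods' t-test gave 1 and 379, and called 0 of either after adjustment. The median log2 fold change of the 71 genes was 0.04 for IL-11 alone and 0.01 with bFGF.

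Set directly against +bFGF, +IL-11 had 8 of 71 genes lower and 0 higher, while 6.53% of all genes were lower. They were NDUFAF7 (log2 fold change -0.74), SDHA (-0.54), NDUFAF3 (-0.49), ATP5MC1 (-0.47), ATP5F1D (-0.38), COX8A (-0.34), COX5A (-0.33) and ATP5IF1 (-0.31), with limma adjusted p from 0.005 to 0.049. With adjustment over all probes, the probes used for ATP5F1D and ATP5IF1 did not pass (limma adjusted p = 0.054 and 0.055). The dimmer ATP5IF1 probe gave 0.47, so the array gives no single direction for ATP5IF1 here either. This comparison uses the same +bFGF arrays as that with −bFGF. Fewer passed whenever 1 +bFGF or +IL-11 array was left out. The median log2 fold change of the 71 genes then ran from -0.15 (without the first +bFGF array) to -0.08 (without the second). The methods' t-test called 0 of the 71 and 0 of all 9269 genes after adjustment. At an unadjusted p under 0.05 it gave 14 of the 71 and 1754 of all genes. With all arrays the median of the 71 genes was -0.11, against 0.00 for all genes.

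Other genes of the pathway were taken from lists by function, and their average bFGF effect is given. As above, 13.4% of all genes were higher and 14.5% lower, and several of the shares below lie near these. Of 40 further assembly factors tested, 8 were higher and 0 lower, with a median of 0.09. Among them SCO1 (1.29-fold) and COX17 (1.30-fold) deliver copper to complex IV, TTC19 serves complex III and SDHAF4 complex II. Of 15 electron carriers and ubiquinone synthesis genes, 4 were higher (ETFB, COQ3, COQ8A and COQ9) and 0 lower. Of 15 citric acid cycle genes, IDH3A (1.63-fold), SUCLA2 and MDH2 were higher and IDH2, the mitochondrial NADP-dependent isocitrate dehydrogenase, was lower. Of 8 exchange carriers, VDAC1 of the outer membrane and SLC25A5, an ADP/ATP carrier, were higher and MPC2, a subunit of the pyruvate carrier, was lower.

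Among 13 tested regulators of mitochondrial biogenesis, 3 were higher and 1 lower with bFGF, where 13.4% of all genes were higher and 14.5% lower. MYC, a transcription factor with many growth genes as targets, averaged 8.18 with bFGF and 7.39 without (log2 signal), a log2 fold change of 0.79 ± 0.10 (limma adjusted p = 0.00050). TFB1M, which methylates the mitochondrial ribosomal RNA, averaged 9.67 with bFGF and 9.01 without (0.66 ± 0.09, limma adjusted p = 0.00063). GABPB1, a subunit of the ETS-type factor GABP, was higher at 0.37, and the nuclear receptor gene ESRRG was lower at -0.62. PPARGC1A, PPARGC1B, NRF1 and GABPA were not detected. None of the 13 subunit genes of the mitochondrial genome is among the named probes.

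Promoter letters were also counted by call. The NRF1 letters stood in 3 of 17 promoters of genes higher with bFGF (17.6%) and in 15 of 45 of those tested and not higher. The share among all genes tested was 16.02%, so the genes higher with bFGF lay near it. The 3 genes were SDHA and SDHD, whose promoters are shown above, and NDUFAF4. The letters CCGGAAGT, bound by ETS factors, stood in 3 of 17 and 6 of 45, against 8.79% of all genes tested. The letters AAGATGGC of the factor YY1 stood in 1 of 17 and 8 of 45, against 5.76%. These are matches of letters in a window and were not tested.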

How the data were processed

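The authors deposited, for each probe of 8 arrays, the intensity before normalization and a detection p-value against negative control beads, and a table of intensity after background subtraction and normalization. BeadStudio 3.0 and rank invariant normalization are given in the methods, and GenomeStudio in the submitters' processing notes. Here, limma 3.58.1 in R 4.3.3 applied neqc to the non-normalized intensities (normexp with negative controls inferred from the detection p-values, offset 16, quantile normalization, log2). Fold changes are on this scale, which understates changes of dim probes. Probes took symbols from the platform annotation, updated through GRCh38.p14 gene identifiers; 21834 of 24526 had 1 symbol and 2692 are unnamed here. Each gene took its brightest probe among 11668 kept.

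All 8 arrays entered 1 fit with a mean per condition, 4 residual degrees of freedom, a prior of 5.69 from an intensity trend, and Benjamini-Hochberg adjustment within each of 7 comparisons. Standard errors of log2 fold changes had a median of 0.098 for the average bFGF effect and 0.14 between 2 conditions, and the number of arrays limits the precision. The methods' t-test, which the study describes for triplicates, was run on the same values. The promoter and marker lists, the genes and the tests were chosen with earlier results of these data known. Every member past the threshold was named, some with both array values per condition. The highest and lowest of each complex were also named, not all of them with array values. Alternatives were background correction, scaling, the authors' normalized intensity table, detection filters, probes per gene, the variance trend, the arrays in the fit, a replicate block and leaving out each array.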

Additional observations from a re-analysis of the deposited data

How the results depend on the processing

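For the average bFGF effect, 21 of 71 genes passed in either direction, 11 without the intensity trend and 15 to 31 under the other full-array alternatives. The main fit had 20 of 71 genes higher against 1238 of all 9269. Without the trend 11 were higher against 1127, a smaller excess over all genes. After median scaling 31 were higher and 0 lower, against 1439 and 1190 of all genes. The median log2 fold change of the 71 genes ranged from 0.11 to 0.20 over all alternatives. Leaving out 1 array never gave more passing genes among the 71 for the average bFGF effect or the 3 comparisons below, and often fewer. The median log2 fold change of the 71 genes then ran from 0.11 to 0.17 for the average bFGF effect and from 0.11 to 0.15 for +bFGF against −bFGF. It ran from 0.09 to 0.17 for +IL-11+bFGF against +IL-11 and from -0.15 to -0.08 for +IL-11 against +bFGF. For +bFGF against −bFGF, 4 genes passed, 10 after median scaling (769 of all 9269 genes higher), 7 in the authors' normalized table (735 higher) and 0 with the methods' t-test. For +IL-11+bFGF against +IL-11, 7 passed, 3 without the trend (446 of all 9269 genes higher) and 0 with the t-test. For +IL-11 against +bFGF, 8 passed, 5 with no detection filter, 3 without the trend (530 of all 9269 genes lower) and 0 with the t-test. With 2 arrays against 2, the t-test called only 2, 0 and 0 of all 9269 genes in these comparisons, so its 0 is no result about the 71. In the other 3 comparisons 0 genes passed under each alternative run. Taking the mean of a gene's probes turned ATP5IF1 to -0.15 for the average bFGF effect and to 0.0779 for +IL-11 against +bFGF, since its probes oppose each other. The cause of the other shifts was not tested.

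With the replicate number as a replicate block, 24, 4, 8 and 8 of the 71 genes passed in these 4 comparisons. Of all 9269 genes 2719, 1648, 1211 and 1371 passed in the same fits. Arrays of the same number deviated together only weakly, with correlations of -0.06 to 0.20 over 6 pairs of conditions, so the numbers were not taken to pair the arrays. A condition left with 1 array was assumed to vary like the others.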
